A study of Mus musculus with 12 samples.

Results

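The cyclins, the cyclin-dependent kinases (CDKs), the CDK inhibitors, the E2F transcription factors and the pocket proteins form the core machinery of the cell division cycle. Their RNA levels were examined in mouse livers that had lost *Hnf4a*, the gene of a nuclear receptor that keeps hepatocytes differentiated, and in mouse fibroblasts that had been made to express it. The genes were taken by symbol alone: Ccn with 1 further letter and at most 1 digit, Cdk with a number, Cdkn with a digit and a letter from a to d, E2f with a digit, Rb1, Rbl1 and Rbl2, leaving out *Cdkn1a*, *Cdkn1c* and *Ccng1*. The rule found 57 of the 24340 entries in each table, 23 of them cyclins, 18 CDKs, 5 CDK inhibitors, 8 E2F factors and 3 pocket proteins.

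RNA-seq was done on 12 samples in 4 groups of 3, and each comparison asked how RNA levels follow HNF4A when it is removed from its own tissue or added to a foreign cell. *Hnf4a* cKO livers came from adult mice with *Hnf4a* fl/fl alleles and *Alb-CreERT2*, a Cre recombinase that the *Albumin* promoter drives in hepatocytes and that tamoxifen switches on, after repeated tamoxifen. Control livers are labelled WT; the study's methods describe them as *Hnf4a* fl/fl, Cre negative and without tamoxifen, while its supplementary legend gives the cKO genotype without tamoxifen. On either account the control mice had no tamoxifen, so the effects of tamoxifen and active Cre cannot be told apart from the loss of *Hnf4a*. The samples are labelled hepatocytes, but RNA was taken from pulverized liver, which holds every cell type of the organ. The other groups were HNF4A EE cells (ectopic expression), which are NIH 3T3 cells, an established mouse embryonic fibroblast line, transduced with a lentivirus carrying mouse *Hnf4a*-IRES-eGFP, and control 3T3 cells transduced with the empty vector, both collected after 72 hours. In bulk samples of this kind, fewer cells of a type and less RNA per cell cannot be told apart.

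The values are FPKM, sequenced fragments divided by the exon length of the gene and the depth of the library, so levels can be set side by side between genes per length. Each table gives 1 FPKM per gene and group, the authors' value for the 3 samples together. There was therefore no replicate spread to set a difference against, no test was made, and whether single samples overlap between groups is unknown. Differences are given as the log2 ratio of FPKM + 1, written below as the log2 ratio, with *Hnf4a* cKO over control livers and HNF4A EE over control cells. An entry was kept if the mean of its 2 group values was at least 1 FPKM, and was counted as higher or lower if it differed by at least 2-fold on this scale. A listed 0 can be a failed estimate in these tables, because *Alb*, the main secreted protein of hepatocytes, is listed at 0 in both groups of livers.

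*Hnf4a* (chromosome 2, 163506808 to 163572910, plus strand, GRCm38) stood at 144 FPKM in *Hnf4a* cKO livers and 275 FPKM in control livers, a log2 ratio of −0.93. This value covers the whole gene, so transcripts that lack only the deleted exons still count towards it. It stood at 1758 FPKM in HNF4A EE cells and 0.639 FPKM in control cells, a log2 ratio of 10.07. Over all kept entries the median log2 ratio was −0.01 in livers and −0.01 in 3T3 cells. When each group was rescaled to a common FPKM sum it was 0.35 in livers and 0.12 in 3T3 cells, and the share of higher entries among those 2-fold apart went to 64.0% in livers, against 36.1% as deposited, and to 62.8% in 3T3 cells, against 52.7% as deposited. Hepatocyte markers summed to 15692 FPKM in *Hnf4a* cKO livers and 18440 FPKM in control livers, with 0 of 6 kept markers at least 2-fold higher and 2 lower, *Ttr* among them. In 3T3 cells none of the 7 hepatocyte markers was kept, and the highest reached 0.186 FPKM, in HNF4A EE cells. Of the 9 stellate cell and fibroblast markers, 4 were kept in 3T3 cells and all 4 of those (*Col1a1*, *Col1a2*, *Col3a1* and *Vim*) were at least 2-fold lower in HNF4A EE cells, the list summing to 249.6 FPKM in HNF4A EE cells and 3464 FPKM in control cells. *Lrat* is listed at 0 there in both groups, and *Dcn*, *Reln* and *Pdgfrb* reached no more than 0.0791 FPKM in either. *Thy1*, below the floor, went the other way, with 1.08 FPKM in HNF4A EE cells and a listed 0 in control cells.

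Cyclins are the regulatory subunits of CDKs, and most of those that drive division are made and destroyed once per cycle. D-type cyclins with CDK4 or CDK6, then E-type cyclins with CDK2, phosphorylate the pocket proteins, which releases E2F factors to switch on the genes of DNA replication. A-type and B-type cyclins with CDK2 and CDK1 then carry the cell through replication and mitosis, and inhibitors of the INK4 and Cip/Kip families hold the kinases back. The adult liver is mostly quiescent and hepatocytes can re-enter the cycle after injury, whereas 3T3 fibroblasts divide continuously in culture.

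In livers the genes that stood apart were those of S phase entry and mitosis, higher in *Hnf4a* cKO than in control tissue and low in level. Of 47 kept genes, 6 were at least 2-fold higher (12.8%), *Ccna2*, *Ccnb1*, *Ccnb2*, *Ccne1*, *Cdk1* and *E2f2*, against 5.08% of the 10909 kept entries. None was at least 2-fold lower, against 8.97% of kept entries. All 6 were low in both groups, at no more than 4.28 FPKM, and *Ccna2*, *Ccnb1*, *Ccnb2*, *Cdk1* and *E2f2* were kept only through their level in *Hnf4a* cKO livers, so they could be counted only as higher. With a log2 ratio of 0.5 in place of 2-fold, 11 were higher (23.4%, against 14.8% of kept entries) and 5 lower (10.6%, against 19.1%). The median of the 47 was 0.15, with 30 above 0 and 17 below, while the quartiles of all kept entries were −0.35 and 0.30. Rescaling each group to a common FPKM sum gave 9 higher genes, adding *Ccnd1*, *Ccng2* and *E2f8*, and again 0 lower.

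**Figure D1:**
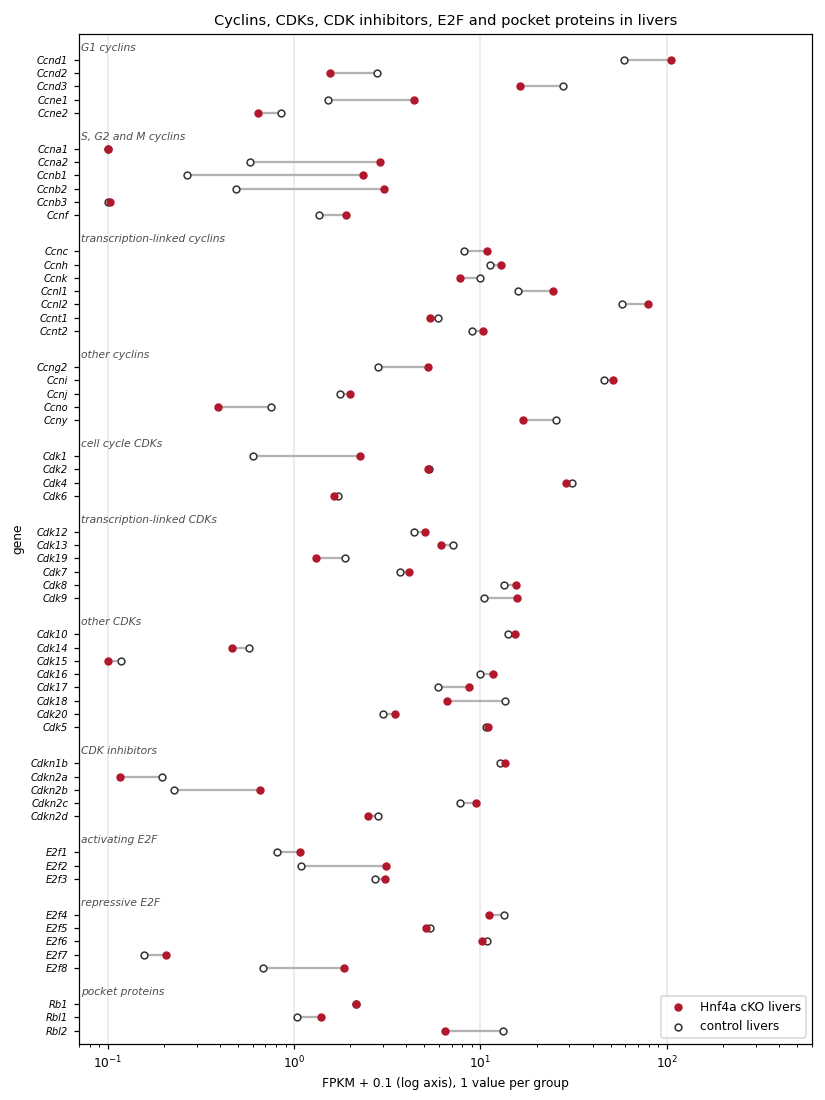
Levels of the 57 genes in livers, 1 row per gene in groups by role, as FPKM + 0.1 on a log axis. Filled red points are *Hnf4a* cKO livers and open points control livers, 1 value per group. The widest gaps are those of *Ccna2*, *Ccnb1* and *Ccnb2*, which lie between 2.24 and 2.95 FPKM in *Hnf4a* cKO livers and below 0.5 FPKM in control livers.

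In 3T3 cells the pattern ran the other way and reached the abundant genes. Of 50 kept genes, 10 were at least 2-fold lower in HNF4A EE cells (20%, against 8.17% of the 10521 kept entries), and they came from nearly every class: the cyclins *Ccnd1*, *Ccne2*, *Ccna2* and *Ccnb2*, the kinases *Cdk4* and *Cdk19*, the inhibitors *Cdkn2c* and *Cdkn2d*, the repressor *E2f7* and the pocket protein gene *Rbl1*. Only *Cdk18* was at least 2-fold higher (2%, against 9.11%). *E2f2* was the one gene kept through a single group, that of control cells. With a log2 ratio of 0.5, 19 were lower (38%, against 22.9%) and 5 higher (10%, against 22.5%). The median of the 50 was −0.32, with 39 below 0 and 11 above, while the quartiles of all kept entries were −0.45 and 0.44. The kept fibroblast markers were lower in the same HNF4A EE cells, as given above, and their part in this result was not tested.

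**Figure D2:**
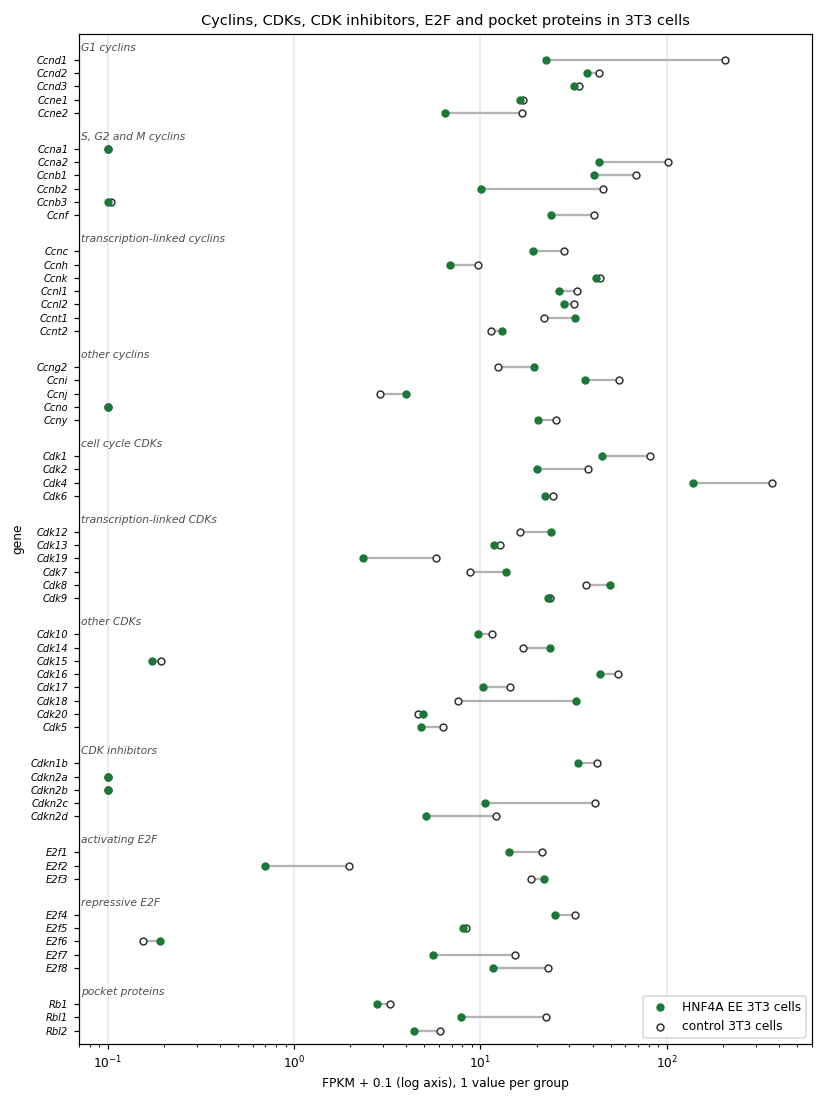
Levels of the 57 genes in 3T3 cells, laid out by role, as FPKM + 0.1 on a log axis. Filled green points are HNF4A EE cells and open points control cells, 1 value per group. *Ccnd1* shows the widest gap, 22.3 FPKM in HNF4A EE cells and 204 FPKM in control cells, and *Cdk18* is the gene that lies furthest to the right of its control.

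The D-type cyclins, which link growth signals to the cycle, differed in how much of their sum was *Ccnd1*. In 3T3 cells they also differed in which of them was the most abundant. *Ccnd1* (cyclin D1, chromosome 7, 144929931 to 144939925, minus strand) had 105 FPKM in *Hnf4a* cKO livers and 59.0 FPKM in control livers, 1.79-fold higher with a log2 ratio of 0.83, just short of the 2-fold line. It was the most abundant of the 57 genes in both groups of livers. In 3T3 cells it had 22.3 FPKM in HNF4A EE cells and 204 FPKM in control cells, 9.18-fold lower with a log2 ratio of −3.14, the largest difference among the 57 in either table. *Ccnd1* thus stood above its control where *Hnf4a* was lost and far below it where *Hnf4a* was added. In GRCm38, 23.4% of its exon bases are shared with *Oraov1*, whose FPKM was 13.8 in *Hnf4a* cKO and 11.4 in control livers, and 11.3 in HNF4A EE and 7.81 in control cells. The strand setting of the counting is not given in the sources used here, so reads of overlapping genes may not have been separated.

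*Ccnd3* (cyclin D3) and *Ccnd2* (cyclin D2), which form the same kinase complexes, did not share this pattern. *Ccnd3* had 16.1 FPKM in *Hnf4a* cKO livers and 27.7 FPKM in control livers, a log2 ratio of −0.75. In 3T3 cells it had 31.7 FPKM in HNF4A EE cells and 33.7 FPKM in control cells, a log2 ratio of −0.09 that turned positive when each group was rescaled to a common FPKM sum. *Ccnd2* had 1.46 FPKM in *Hnf4a* cKO livers and 2.69 FPKM in control livers, a log2 ratio of −0.59, and 37.0 FPKM in HNF4A EE and 43.1 FPKM in control cells, a log2 ratio of −0.21. As a share of the FPKM sum of the 3 genes, *Ccnd1* made up 85.7% in *Hnf4a* cKO livers and 66.0% in control livers, and 24.5% in HNF4A EE cells against 72.7% in control cells. In livers the sum was 123 FPKM in *Hnf4a* cKO and 89.4 FPKM in control. In 3T3 cells it was 91.0 FPKM in HNF4A EE and 281 FPKM in control, and *Ccnd2* (40.7%) was the largest part in HNF4A EE cells.

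Their kinases *Cdk4* and *Cdk6* were level in livers, and *Cdk4* differed in 3T3 cells. *Cdk4* had 28.7 FPKM in *Hnf4a* cKO livers and 30.9 FPKM in control livers, a log2 ratio of −0.10. *Cdk6* had 1.53 FPKM in *Hnf4a* cKO and 1.62 FPKM in control livers, a log2 ratio of −0.05, and both signs turned when each group was rescaled to a common sum. In 3T3 cells *Cdk4* was the most abundant of the 57 genes in both groups, with 137 FPKM in HNF4A EE cells and 366 FPKM in control cells, 2.66-fold lower with a log2 ratio of −1.41. *Cdk6* had 22.0 FPKM in HNF4A EE and 24.5 FPKM in control cells, a log2 ratio of −0.15. *Cdk4* (chromosome 10, 127063534 to 127067920, plus strand) shares 19.7% of its exon bases with *Tspan31*, which had 66.9 FPKM in *Hnf4a* cKO and 167 FPKM in control livers, and 45.0 FPKM in HNF4A EE and 39.4 FPKM in control cells.

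**Figure D3:**
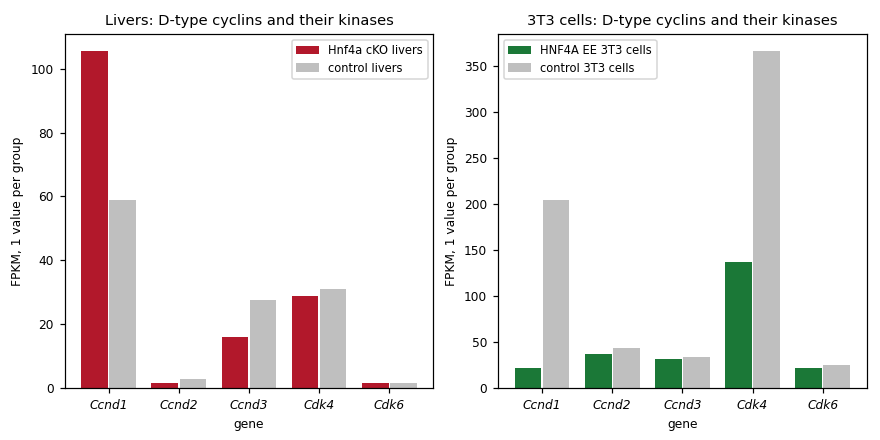
FPKM of the 3 D-type cyclins and their kinases, livers on the left and 3T3 cells on the right, on axes that start at 0 and differ in scale. Coloured bars are *Hnf4a* cKO livers or HNF4A EE cells, grey bars their controls, 1 value per group. *Ccnd1* is the tallest bar in both groups of livers, and in HNF4A EE cells it is lower than *Ccnd2* and *Ccnd3*.

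The E-type cyclins, which activate CDK2 at the entry into S phase, split between the tables. *Ccne1* (chromosome 7, 38097984 to 38107534, minus strand) had 4.28 FPKM in *Hnf4a* cKO livers and 1.41 FPKM in control livers, 3.03-fold higher with a log2 ratio of 1.13. It was the only one of the 6 higher genes that was above 1 FPKM in both groups. In 3T3 cells *Ccne1* had 16.2 FPKM in HNF4A EE and 16.9 FPKM in control cells, a log2 ratio of −0.06 that turned positive on rescaling to a common sum. *Ccne2* was below the floor in livers, at 0.543 FPKM in *Hnf4a* cKO and 0.755 FPKM in control. In 3T3 cells it had 6.39 FPKM in HNF4A EE and 16.5 FPKM in control cells, 2.59-fold lower with a log2 ratio of −1.25. The E-type cyclin that differed in livers was thus level in 3T3 cells, and the one that differed in 3T3 cells was near the limit of the liver data. *Ccne2* shares 17.4% of its exon bases with *Ints8*, which had 22.1 FPKM in HNF4A EE and 27.4 FPKM in control cells. *Cdk2*, the kinase of both, had 5.14 FPKM in *Hnf4a* cKO livers and 5.18 FPKM in control livers, a log2 ratio of −0.01 that turned positive both on centring at the median entry and on rescaling. In 3T3 cells it had 20.1 FPKM in HNF4A EE and 37.6 FPKM in control cells, a log2 ratio of −0.87.

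Among the cyclins of S phase and mitosis, *Ccna2*, *Ccnb1* and *Ccnb2* were at least 2-fold higher in *Hnf4a* cKO livers, all 3 kept only through their level there, and *Ccna2* and *Ccnb2* were at least 2-fold lower in HNF4A EE cells. *Ccna2* (cyclin A2, chromosome 3, 36564865 to 36572150, minus strand), which partners CDK2 in S phase and CDK1 later, had 2.80 FPKM in *Hnf4a* cKO livers and 0.481 FPKM in control livers, a log2 ratio of 1.36. *Ccnb1* (cyclin B1, chromosome 13, 100778650 to 100786570, minus strand), the main mitotic partner of CDK1, had 2.24 FPKM in *Hnf4a* cKO and 0.166 FPKM in control livers, a log2 ratio of 1.47. *Ccnb2* (cyclin B2, chromosome 9, 70407692 to 70421547, minus strand) had 2.95 FPKM in *Hnf4a* cKO and 0.385 FPKM in control livers, a log2 ratio of 1.51. The 3 genes stood close together in *Hnf4a* cKO livers and summed to 7.98 FPKM there and 1.03 FPKM in control livers, far below *Ccnd1* in both. *Cdk1* (chromosome 10, 69335146 to 69352938, minus strand), the mitotic kinase itself, had 2.16 FPKM in *Hnf4a* cKO and 0.5002 FPKM in control livers, a log2 ratio of 1.07. *Ccna2* shares 12.5% of its exon bases with *Exosc9*, which had 22.6 FPKM in *Hnf4a* cKO and 10.6 FPKM in control livers and was itself 2-fold higher, with a log2 ratio of 1.02. How much of the *Ccna2* value is *Exosc9* reads was not tested, whereas *Ccnb1*, *Ccnb2* and *Cdk1* overlap no other gene's exons.

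In 3T3 cells the same genes were much more abundant. *Ccnb2* had 9.94 FPKM in HNF4A EE cells and 45.5 FPKM in control cells, 4.57-fold lower with a log2 ratio of −2.09, second to *Ccnd1* in size. *Ccna2* had 43.2 FPKM in HNF4A EE and 102 FPKM in control cells, 2.35-fold lower with a log2 ratio of −1.22. *Cdk1* and *Ccnb1* were short of the 2-fold line. *Cdk1* had 44.9 FPKM in HNF4A EE and 81.1 FPKM in control cells, a log2 ratio of −0.84, and *Ccnb1* had 40.8 FPKM in HNF4A EE and 67.9 FPKM in control cells, a log2 ratio of −0.72. The 2 B-type cyclins therefore parted in these cells, since *Ccnb1* was 1.67-fold lower and *Ccnb2* 4.57-fold lower. *Ccnf* (cyclin F), a substrate adaptor of a ubiquitin ligase rather than a kinase subunit, had 23.7 FPKM in HNF4A EE and 40.4 FPKM in control cells, a log2 ratio of −0.74, and 1.81 FPKM in *Hnf4a* cKO and 1.26 FPKM in control livers, a log2 ratio of 0.31. The germ cell cyclins *Ccna1* and *Ccnb3* were near 0, *Ccna1* being listed at 0 in all 4 groups and *Ccnb3* reaching no more than 0.00399 FPKM.

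The promoters of these genes are shown because the members at least 2-fold apart include 4 whose upstream sequence carries closely set motifs of the cell cycle. RefSeq windows of 300 bases, 250 before and 50 after a transcript start, were matched for 45 of the 57 genes in 51 windows on GRCm38.p6. A set of 3 motifs was searched on both strands: CCAAT, the box bound by the factor NF-Y; TTTGAA or TTCGAA, the cell cycle homology region (CHR) bound by the MuvB complex; and TTTNNCGC, an E2F motif. No window of the 57 genes had different motifs that shared a base. CCAAT was found in 25 of 51 windows (49%, against 37.4% of all 32841 windows), the CHR in 10 (19.6%, against 19.2%) and the E2F motif in 9 (17.6%, against 5.17%). A pair of CCAAT boxes on 1 strand with first bases 31 to 35 bases apart, a spacing chosen after the sequences had been read, was found in 4 windows (7.84%, against 0.923% of all), those of *Ccnb1*, *Ccnb2*, *Cdk1* and *E2f7*. The stretches below begin 140 bases before the RefSeq start and read towards it on the gene's strand, up to the last base before the start (for *Cdk1* up to 30 bases before it), with motif letters in capitals; a CCAAT box on the opposite strand reads ATTGG.
Ccnb2, chr9:70421555-70421694, minus strand: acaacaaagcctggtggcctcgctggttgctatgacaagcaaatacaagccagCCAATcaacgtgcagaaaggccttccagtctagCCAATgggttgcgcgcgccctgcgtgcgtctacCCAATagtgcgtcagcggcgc
Cdk1, chr10:69352942-69353052, minus strand: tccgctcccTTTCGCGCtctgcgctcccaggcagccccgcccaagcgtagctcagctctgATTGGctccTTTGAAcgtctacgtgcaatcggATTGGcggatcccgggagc
E2f7, chr10:110745299-110745438, plus strand: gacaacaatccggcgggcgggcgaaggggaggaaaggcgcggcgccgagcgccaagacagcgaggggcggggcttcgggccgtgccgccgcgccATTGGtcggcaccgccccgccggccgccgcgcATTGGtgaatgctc
Rbl1, chr2:157204535-157204674, minus strand: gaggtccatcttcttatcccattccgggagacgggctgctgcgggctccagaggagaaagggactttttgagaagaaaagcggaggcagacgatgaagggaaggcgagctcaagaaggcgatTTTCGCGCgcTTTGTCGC

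The windows of 300 bases differ in which motifs they carry, and some matches lie outside the stretches shown. *Ccnb2* has 3 CCAAT boxes, starting 87, 54 and 21 bases before the RefSeq start, and CHR matches 167 bases before it and 4 bases after it. *Ccnb1* has 2 CCAAT boxes, at 99 and 67 bases before the start. *Cdk1* has 3 reversed boxes at 208, 80 and 48 bases, with CHR matches at 71 and 15 bases and E2F motifs at 131 and 29 bases. *E2f7* has 2 reversed boxes at 46 and 14 bases and an E2F motif at 198 bases, and *Rbl1* has no CCAAT match but 2 E2F motifs at 18 and 8 bases. *Cdk1* thus holds all 3 kinds, *E2f7* and *Rbl1* share the E2F motif, and *Ccnb2* and *E2f7* share the CCAAT box. These are matches of letters and not measured binding.

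Of the activating E2F factors, which switch on genes of replication, *E2f2* differed in livers. *E2f2* (chromosome 4, 136172394 to 136196057, plus strand) had 3.00 FPKM in *Hnf4a* cKO livers and 0.987 FPKM in control livers, a log2 ratio of 1.01 that barely passed the 2-fold line. In 3T3 cells it had 0.597 FPKM in HNF4A EE and 1.88 FPKM in control cells, a log2 ratio of −0.85. *E2f1* was below the floor in livers, at 0.982 FPKM in *Hnf4a* cKO and 0.709 FPKM in control. It was the more abundant of the pair in 3T3 cells, with 14.1 FPKM in HNF4A EE and 21.2 FPKM in control cells, a log2 ratio of −0.56. *E2f3* had 2.98 FPKM in *Hnf4a* cKO and 2.62 FPKM in control livers, a log2 ratio of 0.14, and 21.8 FPKM in HNF4A EE and 18.6 FPKM in control cells, a log2 ratio of 0.22. *E2f3* was the only activating member above its control in 3T3 cells.

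Among the repressive E2F factors, the atypical members, which bind DNA without a DP partner and are themselves E2F targets, stood furthest from their controls in 3T3 cells, although *E2f8* was short of 2-fold. *E2f7* had 5.43 FPKM in HNF4A EE cells and 15.2 FPKM in control cells, 2.81-fold lower with a log2 ratio of −1.34, and only 0.105 FPKM in *Hnf4a* cKO and 0.0554 FPKM in control livers. *E2f8* had 11.6 FPKM in HNF4A EE and 22.9 FPKM in control cells, a log2 ratio of −0.92, and 1.75 FPKM in *Hnf4a* cKO and 0.580 FPKM in control livers, a log2 ratio of 0.80; it was kept in livers only through the *Hnf4a* cKO value. *E2f4* and *E2f5*, which act with the pocket proteins in resting cells, were abundant and close to their controls. *E2f4* had 10.97 FPKM in *Hnf4a* cKO and 13.2 FPKM in control livers, a log2 ratio of −0.25 that turned positive on rescaling to a common sum, and 24.9 FPKM in HNF4A EE and 32.0 FPKM in control cells, a log2 ratio of −0.35. *E2f5* had 5.02 FPKM in *Hnf4a* cKO and 5.23 FPKM in control livers, and 7.99 FPKM in HNF4A EE and 8.23 FPKM in control cells, with log2 ratios of −0.05 in livers and −0.04 in the cells whose signs turned on rescaling. *E2f6*, a repressor that works with Polycomb proteins, stood at unlike levels in livers and 3T3 cells. It had 10.1 FPKM in *Hnf4a* cKO and 10.7 FPKM in control livers, a log2 ratio of −0.08 that turned positive on rescaling. In 3T3 cells it had 0.0912 FPKM in HNF4A EE and 0.0539 FPKM in control cells. Whether values this near 0 are failed estimates was not tested.

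The pocket proteins hold E2F factors in check, and *Rbl2* (p130) is the form that prevails in resting cells whereas *Rbl1* (p107) appears in dividing ones. *Rbl2* (chromosome 8, 91070057 to 91123844, plus strand) had 6.38 FPKM in *Hnf4a* cKO livers and 13.0 FPKM in control livers, 2.04-fold lower by FPKM alone and a log2 ratio of −0.93. With the smallest pseudocount tried (0.1), *Rbl2* and *Cdk18* were the only genes counted as lower in livers. *Rbl1* (chromosome 2, 157145893 to 157204534, minus strand) had 1.30 FPKM in *Hnf4a* cKO and 0.933 FPKM in control livers, a log2 ratio of 0.25. In 3T3 cells *Rbl1* had 7.76 FPKM in HNF4A EE and 22.3 FPKM in control cells, 2.88-fold lower with a log2 ratio of −1.41. *Rbl2* had 4.27 FPKM in HNF4A EE and 5.95 FPKM in control cells, a log2 ratio of −0.40. *Rbl2* made up 65.7% of the FPKM sum of the 3 pocket protein genes in *Hnf4a* cKO livers and 81.4% in control livers, and *Rbl1* made up 52.8% in HNF4A EE cells and 71.0% in control cells. *Rb1* itself had 2.04 FPKM in *Hnf4a* cKO and 2.05 FPKM in control livers, a log2 ratio of −0.01 that also turned positive on centring and on rescaling, and 2.67 FPKM in HNF4A EE and 3.17 FPKM in control cells, a log2 ratio of −0.19. *Rbl2* shares 21.0% of its exon bases with other genes, among them *Aktip*, which had 7.84 FPKM in *Hnf4a* cKO and 6.98 FPKM in control livers.

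Of the CDK inhibitors that the rule takes, the 3 kept were close to their controls in livers, and 2 of these 3 were at least 2-fold lower in HNF4A EE cells. *Cdkn1b* (p27), a Cip/Kip inhibitor of CDK2 complexes, had 13.5 FPKM in *Hnf4a* cKO and 12.7 FPKM in control livers, a log2 ratio of 0.08, and 33.5 FPKM in HNF4A EE and 42.1 FPKM in control cells, a log2 ratio of −0.32. *Cdkn2c* (p18), an INK4 inhibitor of CDK4 and CDK6 (chromosome 4, 109660876 to 109667189, minus strand), had 10.5 FPKM in HNF4A EE cells and 41.0 FPKM in control cells, 3.91-fold lower with a log2 ratio of −1.87. In livers it had 9.35 FPKM in *Hnf4a* cKO and 7.63 FPKM in control, a log2 ratio of 0.26. *Cdkn2d* (the p19 of the INK4 family) had 5.03 FPKM in HNF4A EE and 11.9 FPKM in control cells, 2.37-fold lower with a log2 ratio of −1.10, and 2.39 FPKM in *Hnf4a* cKO and 2.73 FPKM in control livers, a log2 ratio of −0.14 that turned positive on rescaling. Inhibitors of CDK4 were thus lower together with *Cdk4* and *Ccnd1*. *Cdkn2a* and *Cdkn2b*, which lie next to each other on chromosome 4, were listed at 0 in both groups of 3T3 cells, a line known to lack this locus. In livers *Cdkn2a* had 0.0160 FPKM in *Hnf4a* cKO and 0.0962 FPKM in control, and *Cdkn2b* had 0.555 FPKM in *Hnf4a* cKO and 0.128 FPKM in control, all below the floor. *Cdkn1a* (p21), which the rule leaves out, had 120 FPKM in *Hnf4a* cKO and 1.95 FPKM in control livers, and 144 FPKM in HNF4A EE and 55.9 FPKM in control cells, with log2 ratios of 5.36 and 1.35. *Cdkn1c* (p57) had 0.602 FPKM in *Hnf4a* cKO and 3.38 FPKM in control livers, a log2 ratio of −1.45, and *Ccng1*, a target of p53, had 27.1 FPKM in *Hnf4a* cKO and 14.2 FPKM in control livers, a log2 ratio of 0.89.

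The cyclins and CDKs of transcription, which act on RNA polymerase II or within the Mediator complex, differed little in livers. None of the 7 such cyclins and 6 such kinases was 2-fold apart in livers, where the log2 ratios of the cyclins ran between −0.32 and 0.59. *Ccnl2* and *Ccnl1*, cyclins of the splicing compartment, were among the most abundant liver members, *Ccnl2* with 79.0 FPKM in *Hnf4a* cKO and 57.2 FPKM in control livers and *Ccnl1* with 24.3 FPKM in *Hnf4a* cKO and 15.8 FPKM in control livers, log2 ratios of 0.46 and 0.59. In 3T3 cells they were below control instead, *Ccnl2* with 28.1 FPKM in HNF4A EE and 31.6 FPKM in control cells and *Ccnl1* with 26.4 FPKM in HNF4A EE and 32.7 FPKM in control cells. *Cdk9*, the kinase that releases paused polymerase, had 15.5 FPKM in *Hnf4a* cKO and 10.4 FPKM in control livers, a log2 ratio of 0.54, and 22.9 FPKM in HNF4A EE and 23.4 FPKM in control cells, a log2 ratio of −0.03 that turned positive on rescaling. Its cyclins were near their controls in livers. *Ccnt1* had 5.29 FPKM in *Hnf4a* cKO and 5.84 FPKM in control livers, a log2 ratio of −0.12 that turned positive on rescaling, and *Ccnt2* had 10.2 FPKM in *Hnf4a* cKO and 8.96 FPKM in control livers. *Ccnk* had 7.67 FPKM in *Hnf4a* cKO and 9.82 FPKM in control livers and *Cdk13* had 6.03 FPKM in *Hnf4a* cKO and 7.06 FPKM in control livers, with log2 ratios of −0.32 and −0.20 that turned positive on rescaling. *Cdk7* and *Cdk12* were below 5 FPKM in both groups of livers, with log2 ratios of 0.14 and 0.17, and *Ccnh* had 12.8 FPKM in *Hnf4a* cKO and 11.2 FPKM in control livers.

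In 3T3 cells these genes went both ways, with 2 of the 7 cyclins and 3 of the 6 kinases above control, none of them 2-fold higher, and *Cdk19* alone 2-fold lower. *Cdk7*, the kinase that activates other CDKs, had 13.6 FPKM in HNF4A EE and 8.67 FPKM in control cells, a log2 ratio of 0.60, while its partner *Ccnh* had 6.79 FPKM in HNF4A EE and 9.61 FPKM in control cells, a log2 ratio of −0.45. *Cdk12*, which phosphorylates elongating polymerase, had 23.8 FPKM in HNF4A EE and 16.2 FPKM in control cells, a log2 ratio of 0.53. *Ccnt1* had 31.9 FPKM in HNF4A EE and 21.8 FPKM in control cells, a log2 ratio of 0.53, and *Ccnt2* had 13.0 FPKM in HNF4A EE and 11.2 FPKM in control cells. The paired kinases of Mediator parted. *Cdk8* had 49.5 FPKM in HNF4A EE and 36.9 FPKM in control cells, a log2 ratio of 0.42, whereas its paralogue *Cdk19* had 2.25 FPKM in HNF4A EE and 5.67 FPKM in control cells, 2.52-fold lower with a log2 ratio of −1.04, and their cyclin *Ccnc* had 18.9 FPKM in HNF4A EE and 27.9 FPKM in control cells, a log2 ratio of −0.54. In livers *Cdk8* had 15.3 FPKM in *Hnf4a* cKO and 13.2 FPKM in control, *Ccnc* had 10.7 FPKM in *Hnf4a* cKO and 8.08 FPKM in control, and *Cdk19* had 1.203 FPKM in *Hnf4a* cKO and 1.78 FPKM in control. *Ccnk*, the cyclin of CDK12 and CDK13, had 41.3 FPKM in HNF4A EE and 43.8 FPKM in control cells and *Cdk13* had 11.8 FPKM in HNF4A EE and 12.6 FPKM in control cells, with log2 ratios of −0.08 and −0.09 that turned positive on rescaling.

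Of the remaining cyclins and CDKs, *Cdk18* stood out. *Cdk18* (chromosome 1, 132112237 to 132139684, minus strand), a kinase of the PCTAIRE group that is not part of the cell cycle engine, had 32.4 FPKM in HNF4A EE cells and 7.52 FPKM in control cells, 4.32-fold higher with a log2 ratio of 1.97. In livers it had 6.52 FPKM in *Hnf4a* cKO and 13.5 FPKM in control, 2.07-fold lower by FPKM alone with a log2 ratio of −0.95. Its direction was the opposite of that of *Ccnd1* in both tables, below control where *Hnf4a* was lost and above it where *Hnf4a* was added. The other PCTAIRE kinases differed less. *Cdk16* had 11.6 FPKM in *Hnf4a* cKO and 9.83 FPKM in control livers, and 44.0 FPKM in HNF4A EE and 54.7 FPKM in control cells. *Cdk17* had 8.54 FPKM in *Hnf4a* cKO and 5.80 FPKM in control livers, and 10.3 FPKM in HNF4A EE and 14.3 FPKM in control cells, with log2 ratios of 0.49 and −0.44.

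*Ccng2*, a cyclin linked to exit from the cycle, stood above control in both tables. It had 5.13 FPKM in *Hnf4a* cKO and 2.72 FPKM in control livers, a log2 ratio of 0.72, and 19.4 FPKM in HNF4A EE and 12.3 FPKM in control cells, a log2 ratio of 0.62. *Ccni*, among the 3 most abundant members in livers, had 51.3 FPKM in *Hnf4a* cKO and 46.1 FPKM in control livers, and 36.4 FPKM in HNF4A EE and 55.5 FPKM in control cells, a log2 ratio of −0.60 in the cells. *Ccny*, the membrane cyclin that activates CDK14 and CDK16, had 16.8 FPKM in *Hnf4a* cKO and 25.3 FPKM in control livers, a log2 ratio of −0.56, and 20.2 FPKM in HNF4A EE and 25.3 FPKM in control cells. *Cdk14* was below the floor in livers and had 23.6 FPKM in HNF4A EE and 16.9 FPKM in control cells, a log2 ratio of 0.46. *Cdk10* had 15.3 FPKM in *Hnf4a* cKO and 14.0 FPKM in control livers, and 9.62 FPKM in HNF4A EE and 11.4 FPKM in control cells. *Cdk5*, best known in neurons, had 10.8 FPKM in *Hnf4a* cKO and 10.6 FPKM in control livers, and 4.68 FPKM in HNF4A EE and 6.22 FPKM in control cells. *Ccnj* and *Cdk20* stayed below 5 FPKM in all 4 groups, with log2 ratios between 0.08 and 0.37, and *Ccno* and *Cdk15* were below 1 FPKM throughout.

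Set side by side, 46 genes were kept in both tables. At 2-fold, *Ccna2* and *Ccnb2* were higher in *Hnf4a* cKO livers and lower in HNF4A EE cells, 2 of 46 (4.35%), as were 51 of the 8982 entries kept in both (0.568%). Their values in livers rest on levels below 3 FPKM. Both were kept there only through the *Hnf4a* cKO value, so in livers they could be counted only as higher. None of the 46 was lower in *Hnf4a* cKO livers and higher in HNF4A EE cells, and none was 2-fold apart in the same direction in both, against 127 (1.41%), 55 (0.612%, higher in both) and 29 (0.323%, lower in both) of all entries. *Ccnd1* at 0.83 and −3.14, *Cdk1* at 1.07 and −0.84, *Ccnb1* at 1.47 and −0.72, *E2f2* at 1.01 and −0.85 and *E2f8* at 0.80 and −0.92 had the same pair of signs with 1 or both log2 ratios short of 2-fold. Genes with a smaller log2 ratio in 1 table also had these signs, among them *Rbl1* at 0.25 and −1.41 and *Ccne1* at 1.13 and −0.06. The sign of *Ccne1* in 3T3 cells turned on rescaling. *Cdk1*, *Ccnb1*, *E2f2*, *E2f8* and *Rbl1* were kept in livers only through the *Hnf4a* cKO value. Other genes were below control in both tables, among them *Cdk4* at −0.10 and −1.41 and *Cdk19* at −0.34 and −1.04. *Ccng2* was above control in both. Signs below 0 were common in 3T3 cells, where 39 of the 50 kept genes had them.

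**Figure D4:**
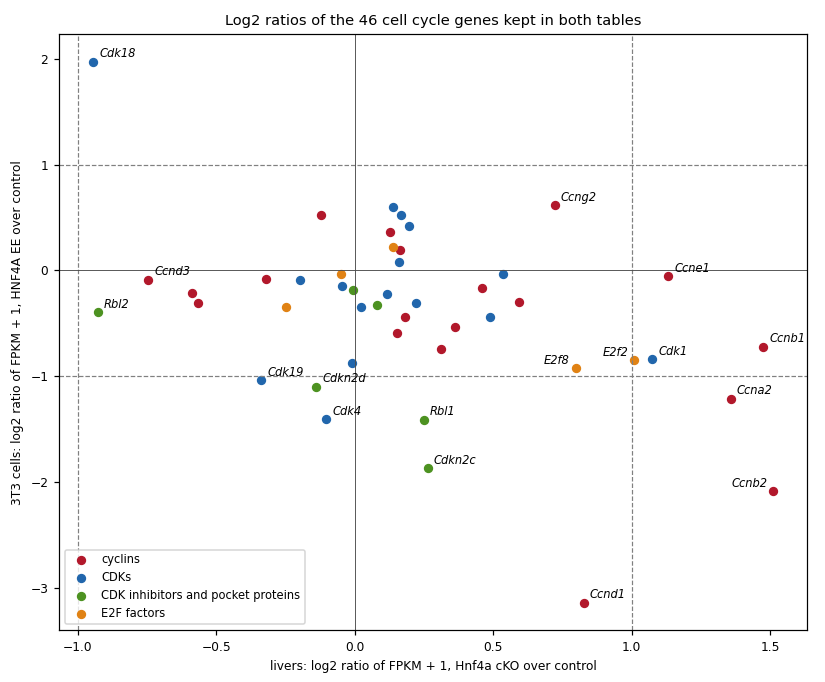
Log2 ratio of FPKM + 1 in livers (*Hnf4a* cKO over control, horizontal axis) against that in 3T3 cells (HNF4A EE over control, vertical axis) for the 46 genes kept in both tables, coloured by class. Dashed lines mark 2-fold. *Ccnd1* lies at 0.83 and −3.14, *Cdk18* at −0.95 and 1.97, and *Ccna2* and *Ccnb2* are the only points beyond 2-fold on both axes.

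Genes that act around this machinery were examined in 4 further lists, to be read against a median log2 ratio of −0.01 over all kept entries in either table, 5.08% of entries higher and 8.97% lower in livers, and 9.11% higher and 8.17% lower in 3T3 cells. Of 15 mitosis genes, 7 were kept in livers and 5 of these were at least 2-fold higher in *Hnf4a* cKO livers (*Birc5*, *Kif20a*, *Plk1*, *Top2a* and *Ube2c*), with a median of 1.23. *Kif20a*, *Plk1* and *Top2a* were kept only through their level in *Hnf4a* cKO livers, so they too could be counted only as higher. *Ube2c*, which tags cyclin B for destruction, had 5.46 FPKM in *Hnf4a* cKO and 1.65 FPKM in control livers. In 3T3 cells all 15 were kept, 8 were at least 2-fold lower in HNF4A EE cells and 0 higher, with a median of −1.05. *Bub1b*, of the spindle checkpoint, had 15.6 FPKM in HNF4A EE and 53.4 FPKM in control cells, but *Aurka*, a spindle kinase, had 112 FPKM in HNF4A EE and 61.0 FPKM in control cells. The division genes were therefore not uniformly lower in HNF4A EE cells.

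Of 14 replication genes, 13 were kept in livers, with 1 at least 2-fold higher in *Hnf4a* cKO livers, 1 lower and a median of 0.19. *Rrm2*, a subunit of ribonucleotide reductase, had 10.5 FPKM in *Hnf4a* cKO and 1.94 FPKM in control livers. In 3T3 cells 9 of 14 were at least 2-fold lower in HNF4A EE cells, with a median of −1.25, and *Cdc6*, which loads the replicative helicase, had 7.51 FPKM in HNF4A EE and 26.3 FPKM in control cells. The helicase subunit *Mcm5* had 38.5 FPKM in HNF4A EE and 119 FPKM in control cells.

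Of 14 regulators that act on CDKs directly, 9 were kept in livers, with 3 at least 2-fold higher in *Hnf4a* cKO livers (*Cks1b*, *Cdc20* and *Cdkn3*) and 1 lower. *Cdc20* and *Cdkn3* were kept only through their level in *Hnf4a* cKO livers, so they could be counted only as higher. The lower one was *Wee1*, the kinase that inhibits CDK1, with 1.23 FPKM in *Hnf4a* cKO and 7.84 FPKM in control livers. *Cks1b*, a small subunit of CDK complexes, had 25.4 FPKM in *Hnf4a* cKO and 9.48 FPKM in control livers, and was by level the largest of the 3. In 3T3 cells all 14 were kept and 3 were at least 2-fold lower in HNF4A EE cells with 0 higher and a median of −0.52, *Fbxo5*, *Pkmyt1* and *Skp2*, which marks p27 for destruction, with 5.98 FPKM in HNF4A EE and 19.95 FPKM in control cells. Of 10 E2F partners and subunits of the DREAM or MuvB complex, 7 were kept in livers and 0 of them were 2-fold apart, with a median of −0.08. *Mybl1*, *Mybl2* and *Foxm1* were below the floor there and above control, *Mybl1* by more than 2-fold. In 3T3 cells *Tfdp1*, the DP partner of E2F, was the only one of 10 that was 2-fold apart, at 24.2 FPKM in HNF4A EE and 54.7 FPKM in control cells, and the median was −0.05.

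Markers of other cell types differed between the same livers. The neutrophil list summed to 34.8 FPKM in *Hnf4a* cKO livers and 3.28 FPKM in control livers, with 2 of 2 kept markers at least 2-fold higher (*S100a8* and *S100a9*), while *Mpo* had 0.0153 FPKM in *Hnf4a* cKO and 0.0183 FPKM in control livers. The macrophage list summed to 209 FPKM in *Hnf4a* cKO and 189 FPKM in control livers, but the excess rested on *Marco* alone, the 1 marker of 7 that was at least 2-fold higher, with 43.4 FPKM in *Hnf4a* cKO and 3.91 FPKM in control livers. The other 6 macrophage markers were all below control and summed to 166 FPKM in *Hnf4a* cKO and 186 FPKM in control livers. The cholangiocyte list summed to 32.9 FPKM in *Hnf4a* cKO and 28.9 FPKM in control livers. Of its 4 kept markers 3 were above control, with a median log2 ratio of 0.65. These 3 (*Krt19*, *Epcam* and *Sox9*) were kept only through their level in *Hnf4a* cKO livers, so they could stand only above control. *Sox9* alone was at least 2-fold higher (6.77 FPKM in *Hnf4a* cKO and 0.536 FPKM in control livers). Without *Sox9* the list summed to 26.1 FPKM in *Hnf4a* cKO and 28.3 FPKM in control livers. Most of that remainder was *Spp1*, which was below control with a log2 ratio of −0.28. *Krt19*, *Epcam* and *Krt7*, the last below the floor, were above control, with log2 ratios of 0.79, 0.51 and 0.35. Endothelial markers summed to 58.4 FPKM in *Hnf4a* cKO and 75.5 FPKM in control livers and stellate cell and fibroblast markers to 122 FPKM in *Hnf4a* cKO and 156 FPKM in control livers, with 0 higher in either list and *Reln* alone 2-fold lower. Erythroid markers summed to 35.9 FPKM in *Hnf4a* cKO and 24.7 FPKM in control livers and lymphoid markers to 2.51 FPKM in *Hnf4a* cKO and 3.98 FPKM in control livers, with 0 of 3 kept markers 2-fold apart. The cyclins and *Cdk1* that were higher in *Hnf4a* cKO livers stood below 3 FPKM beside these sums, *Ccne1* at 4.28 FPKM excepted, and the part of other cell types in the result was not tested.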

How the data were processed

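RNA-seq samples of livers and of 3T3 cells were compared within their own table. STAR alignment to mm10 and Cufflinks quantification in FPKM were done by the authors (STAR 2.5.0b and Cufflinks 2.2.1 in the submitters' processing notes). For the gene annotation, strand setting and library scaling, details are not given in the sources used. The deposited tables hold 1 FPKM per gene and group for its 3 samples, with columns of the authors' own comparison (status, log2 fold change, test statistic, p-value, q-value and significance) that were not used. Counts could not be recovered, so the depth per sample is unknown and no interval, SD or test was possible.

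Log2 ratios were taken with a pseudocount of 1 FPKM, entries were kept at a mean of 1 FPKM or more, and a log2 ratio of 1 or more in size was counted. Alternatives were pseudocounts of 0.5 and 0.1, no floor and a floor of 5, a log2 ratio of 0.5 (the study's fold, there used together with a p-value), centring and rescaling. Values were given for genes of 5 FPKM or more in a group, genes 2-fold apart, and the cyclins, CDKs, inhibitors, E2F factors and pocket proteins of the cell cycle at any level, and for up to 4 genes of each further list with the largest log2 ratios at 5 FPKM or more. The genes, lists and markers were chosen with earlier results of these data known. *Ccng2* and *Cdk18* were singled out after their values were seen. The values of some genes on the further lists and marker lists are not reported here, although the counts, sums and medians of those lists include them. Gene positions and exon overlaps are from GENCODE M21 (GRCm38) and promoter windows from RefSeq (GRCm38.p6). The steps were tested on simulated data with Python 3.11.15, numpy 2.4.6 and pandas 2.3.3, and matplotlib 3.10.9 drew the figures.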

Additional observations from a re-analysis of the deposited data

How the results depend on the processing

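With 1 value per group, no replicate could be left out. No paired analysis was possible because the tables hold 1 value per group. With a pseudocount of 0.1 in place of 1, 2 genes were at least 2-fold lower in *Hnf4a* cKO livers (*Cdk18* and *Rbl2*) in place of 0, 7 were higher (*E2f8* added to the 6), and in HNF4A EE cells 11 were lower (*E2f2* added to the 10). At a floor of 5 FPKM none of the 27 genes kept in livers was 2-fold higher in *Hnf4a* cKO livers, since all 6 lie below that floor, and 9 of 45 were lower in HNF4A EE cells (*Cdk19* was no longer kept). A log2 ratio of 0.5 gave 11 higher and 5 lower genes in *Hnf4a* cKO livers, and 5 higher and 19 lower in HNF4A EE cells; over all entries it gave 1616 higher and 2088 lower in livers, against 554 and 979 at 2-fold, and 2363 higher and 2406 lower in 3T3 cells, against 958 and 860. Rescaling each group to a common FPKM sum put the median log2 ratio of the genes at 0.52 in livers and −0.18 in 3T3 cells, against 0.15 and −0.32 as deposited, while that of all entries went to 0.35 and 0.12. It turned the sign of 11 of 47 genes in livers and 6 of 50 in 3T3 cells, none of them 2-fold apart, and centring turned those of *Cdk2* and *Rb1* in livers. Rescaling gave 1263 higher and 711 lower entries in livers and 1309 higher and 774 lower in 3T3 cells. No gene that was 2-fold apart changed direction under a pseudocount, centring or rescaling, and no floor left the counts at 6 and 0 in livers and 1 and 10 in 3T3 cells. Which scaling fits these libraries was not tested. Genes below about 1 FPKM rest on few reads of unknown number, and single samples could not be inspected.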
